A study of Homo sapiens with 2 samples.

Results

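The genes described here encode 4 caspases (CASP2, CASP6, CASP8 and CASP9), the apoptosome components cytochrome c (CYCS) and APAF1, the caspase inhibitor XIAP and its antagonist DIABLO. They were chosen by symbol, by a rule that uses no measured value though earlier results of these data were known, and all 8 were found among the 54261 features of the count table. RNA-seq counts were available for RKO cells, a human colorectal carcinoma line, with 1 library from cells transfected with a control siRNA (siNC, labelled WT) and 1 from cells transfected with siRNA against HNRNPM (labelled HNRNPM knockdown). HNRNPM encodes an RNA-binding protein that takes part in pre-mRNA splicing, and the comparison addresses how the transcriptome differs when it is knocked down. The samples' labels give neither the siRNA sequences nor how long after transfection cells were taken. With 1 library per group there is no replicate check, so the values compare 2 libraries and no p-value is given. Each interval is a 95% counting interval that leaves out variation between cultures, and PCR copies of a molecule count as separate reads.

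Caspases are cysteine proteases made as inactive precursors. Initiator caspases are activated on protein platforms: CASP8 at death receptors, CASP9 on the apoptosome and CASP2 on a complex with PIDD1 and CRADD. The apoptosome forms when cytochrome c leaves the mitochondria and binds APAF1. Executioner caspases such as CASP6 then cleave cellular proteins. XIAP binds and blocks CASP9 and executioner caspases, and DIABLO, released with cytochrome c, relieves that block. In healthy cells cytochrome c carries electrons between respiratory complexes. All of these steps are set largely at the protein level, which was not measured.

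In total, 13056118 reads were counted in the siHNRNPM library and 19931360 in the control. Levels are given as CPM, counts per 1000000 reads of the TMM-scaled library, and the 12925 genes that reached a CPM of 1 in either library are called measured. HNRNPM had 1042 reads (79.6 CPM) with siHNRNPM and 2870 reads (144 CPM) in the control, or 55.2% of the control level (interval 51.3% to 59.2%). Of 9 epithelial and colorectal marker genes, 6 had a read in both libraries. EPCAM, KRT8, KRT18 and CDX2 were at 8.10 CPM or more in both, whereas CDH1 (1 and 10 reads with siHNRNPM and in the control), KRT19 (1 and 1), VIL1 (0 and 1) and LGALS4 (1 and 0) were nearly absent and KRT20 was at 0. The mesenchymal marker VIM had 26.1 and 28.1 CPM. Of 13 liver-type secreted genes, 10 had a read in the siHNRNPM library and 5 in the control library, and their summed level was 35.1 CPM against 0.754 CPM. ALB had 77 reads against 0, AFP 174 against 1 and SERPINA1 177 against 6, while APOA1, TTR and FGG were at 0 in both libraries. This difference runs with every ratio below, and its part in them was not tested.

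All 8 genes were measured. The intervals of CYCS, CASP6, CASP8, XIAP and CASP2 lay above a ratio of 1, those of CASP9, APAF1 and DIABLO spanned it, and none lay below it. Intervals lay above 1 for 22.0% of all measured genes and below 1 for 26.1%. Among the 7501 measured genes with as many reads as these, from 353 to 4165 over both libraries, the share above 1 was 20.9%, and 2176 genes lay below it. The median log2 ratio of the 8 genes, siHNRNPM over control, was 0.22, against -0.01 for all measured genes, whose quartiles were -0.21 and 0.18. Their ratios ran from -0.11 to 0.79, 4 of them were above the upper quartile, and none reached the 2-fold level. With an interval on the same side of 1, 2.45% of measured genes passed that level upward and 1.49% downward. Among the measured genes with as many reads as the 8, only 0.32% and 0.267% did. Without CYCS the median was 0.15.

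**Figure D1:**
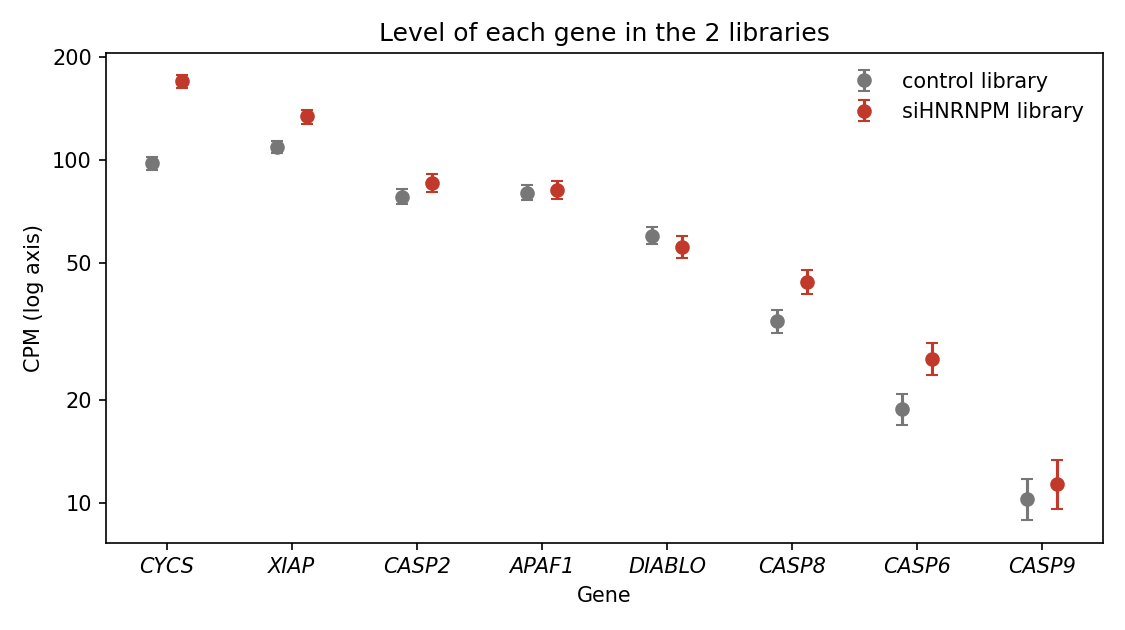
Level of each of the 8 genes in the control (grey) and siHNRNPM (red) library, in CPM on a log axis; bars are 95% Poisson counting intervals and each point is 1 library. CYCS stands at 169.5 against 97.9 CPM with well separated bars, whereas the bars of CASP2, CASP9, APAF1 and DIABLO overlap between the libraries.

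CYCS had the highest ratio of the group. The gene lies on chromosome 7 from 25120091 to 25125361 on the minus strand (ENSG00000172115.8, GRCh38, GENCODE 29). It had 2219 reads (169.5 CPM) in the siHNRNPM library and 1946 reads (97.9 CPM) in the control library, so the shallower library held more reads of it. The level was 1.73-fold higher (interval 1.63 to 1.84), a log2 ratio of 0.79 (0.70 to 0.88). Among all measured genes this ratio stood at percentile 95.9, and among the 3197 genes whose mean CPM was between 0.5 and 2 times its own, at percentile 99.6. CYCS has many processed pseudogenes, and the table holds 45 rows named as such, of which 5 had a read. They held 11 and 26 reads, or 0.888% of the CYCS reads, and adding them gave a log2 ratio of 0.78 (0.69 to 0.87). How reads shared by the gene and these copies were assigned is not given in the sources used here.

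APAF1, the scaffold that oligomerises around cytochrome c, had an interval that spanned a ratio of 1. Its position is chromosome 12, 98645141 to 98735433, plus strand (ENSG00000120868.13). The libraries held 1069 and 1599 reads, or 81.7 CPM with siHNRNPM and 80.4 CPM in the control. The log2 ratio was 0.02 (-0.09 to 0.14), near the middle of all measured genes at percentile 55.0. Among the 4364 genes of similar level this ratio stood at percentile 59.6. The end of APAF1 overlaps ANKS1B on the opposite strand, which had 7 and 0 reads. The number of CYCS reads per APAF1 read was 2.08 with siHNRNPM and 1.22 in the control, a 1.71-fold difference that does not depend on library scaling (log2 0.77, interval 0.63 to 0.91). This and the other ratios between a pair of genes were chosen after the values were seen.

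CASP9, the initiator recruited by APAF1, was the least read member. It lies on chromosome 1 from 15490832 to 15526534 on the minus strand (ENSG00000132906.17). The libraries held 149 reads (11.4 CPM) with siHNRNPM and 204 reads (10.3 CPM) in the control, for a log2 ratio of 0.15 (-0.16 to 0.46). The interval allows a level from 0.892-fold to 1.38-fold of the control. These counts do not tell apart the ratios within that range, which includes 1. CASP9 per APAF1 likewise gave an interval that spanned no difference (log2 0.13, -0.21 to 0.46).

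CASP8, the initiator at death receptors, was higher in the siHNRNPM library. Its position is chromosome 2, 201233443 to 201287711, on the plus strand (ENSG00000064012.21), and no other annotated gene overlaps it. It had 578 reads (44.2 CPM) against 674 (33.9 CPM), which is 1.30-fold higher (interval 1.16 to 1.46), a log2 ratio of 0.38 (0.22 to 0.54). Its ratio stood at percentile 88.5 of all measured genes and 94.7 of the 4812 genes of similar level. The ratio of CASP8 to CASP9 was not separable between the libraries (log2 difference 0.23, -0.12 to 0.59), so the higher value of CASP8 is not shown to differ from that of CASP9.

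CASP2 was only slightly higher. The gene spans 143288215 to 143307696 of chromosome 7, plus strand (ENSG00000106144.19). With siHNRNPM it had 1123 reads (85.8 CPM) and in the control 1555 reads (78.2 CPM). This is 1.10-fold (interval 1.02 to 1.19), a log2 ratio of 0.13 (0.02 to 0.25), inside the quartiles of all measured genes. It stood at percentile 69.9 of all measured genes and 78.7 of the 4352 genes of similar level. When the control library was thinned to the depth of the other, the CASP2 interval spanned a ratio of 1 (log2 0.12, -0.003 to 0.24), which leaves 4 of the 8 genes above it.

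CASP6, an executioner that cleaves nuclear lamin A, was higher in the siHNRNPM library. It lies on chromosome 4 from 109688622 to 109703583 on the minus strand (ENSG00000138794.9). The gene had 344 reads (26.3 CPM) against 373 (18.8 CPM), 1.40-fold higher (interval 1.21 to 1.63), a log2 ratio of 0.49 (0.27 to 0.70). This ratio stood at percentile 91.7 of all measured genes and 96.4 of the 4055 genes of similar level. Its end overlaps MCUB on the opposite strand, listed under its older symbol with 780 and 1099 reads, so a few reads could belong to either gene if strand was not used in counting.

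**Figure D2:**
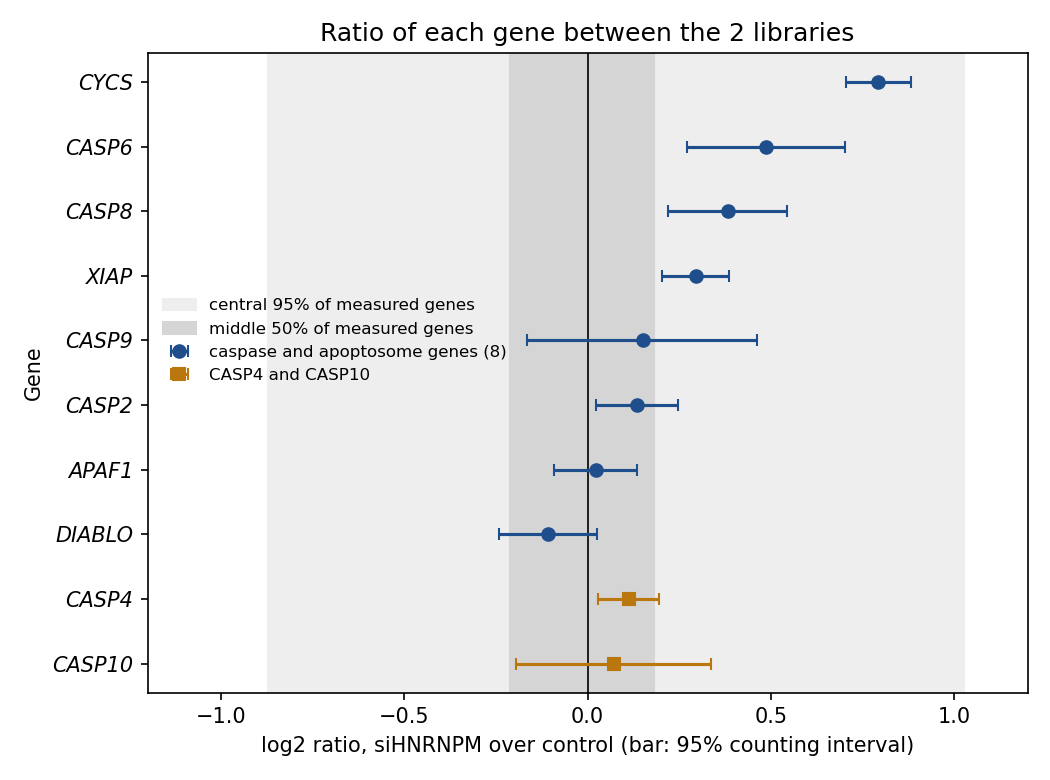
log2 ratio of siHNRNPM over control for the 8 genes (blue circles) and for CASP4 and CASP10 (orange squares), with 95% counting intervals; shading marks the middle 50% and the central 95% of all measured genes. CYCS at 0.79 and DIABLO at -0.11 are the highest and lowest of the 8, and CASP9, CASP2, APAF1 and DIABLO lie inside the middle 50%.

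XIAP, the inhibitor, was higher, while the interval of DIABLO, its antagonist, spanned a ratio of 1. XIAP spans 123859724 to 123913979 of chromosome X, plus strand (ENSG00000101966.12). It had 1754 reads (134 CPM) against 2173 (109 CPM), 1.23-fold higher (interval 1.15 to 1.31), a log2 ratio of 0.29 (0.20 to 0.39). This ratio stood at percentile 84.3 of all measured genes and 93.9 of the 3428 genes of similar level. DIABLO had 731 reads (55.9 CPM) against 1197 (60.2 CPM), with a log2 ratio of -0.11 (-0.24 to 0.03), the one value below 0 among the 8. The number of XIAP reads per DIABLO read was 2.40 in the siHNRNPM library against 1.82 in the control, 1.32-fold (log2 0.40, 0.24 to 0.57). XIAP per CASP9 gave 0.14 (-0.18 to 0.47). GENCODE 29 holds a pair of overlapping DIABLO records on the minus strand of chromosome 12, ENSG00000184047.17 from 122207663 to 122226568 and ENSG00000284934.1 from 122207662 to 122227534. A longer protein-coding gene on the same strand, AC048338.1, also overlaps them, so the reads of this locus may be split in a way that the symbol does not show.

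**Figure D3:**
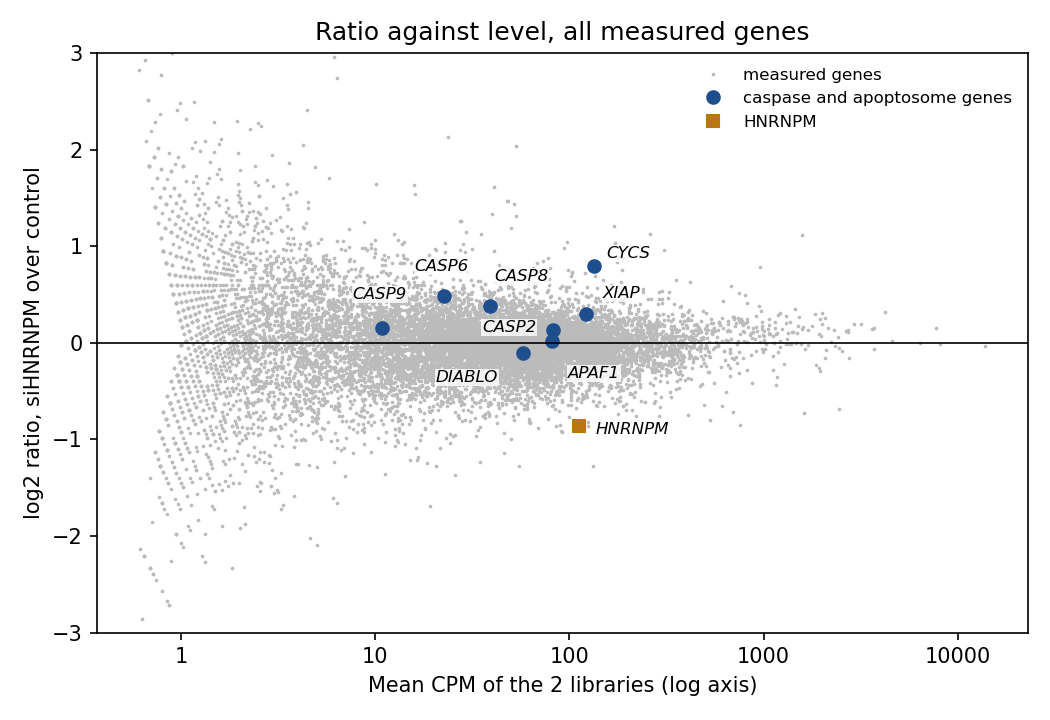
log2 ratio of siHNRNPM over control against the mean CPM of the 2 libraries (log axis) for measured genes (grey; 33 beyond the axis are not drawn), the 8 genes (blue) and HNRNPM (orange). CYCS, at 0.79, sits near the upper edge of the genes of its level, and HNRNPM, at -0.86, near the lower edge of its own.

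Levels of different genes were compared per kilobase of annotated exon. CYCS was the highest of the 8 in both libraries, at 38.0 CPM per kilobase with siHNRNPM and 22.0 in the control, and CASP9 the lowest, at 2.16 and 1.95. The level of CYCS was thus 17.6 times that of CASP9 in the siHNRNPM library and 11.3 times in the control. XIAP came second in both libraries, at 14.8 and 12.1 CPM per kilobase, though its interval overlapped that of CASP6 (13.5) in the siHNRNPM library. In the control library APAF1 (10.2), CASP2 (9.75), CASP6 (9.65) and DIABLO (8.46) followed. The intervals of APAF1, CASP2 and CASP6 each overlapped the next, and that of DIABLO did not overlap that of CASP8. CASP8 was seventh in both, at 6.10 and 4.68. With the longest transcript as the length, CYCS stayed first and CASP9 last, but DIABLO moved from place 6 to place 2 and XIAP from place 2 to place 4 in both libraries.

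The counts are per gene and do not separate isoforms. CASP2, CASP8 and CASP9 are textbook cases of genes whose splice forms can have opposing roles in apoptosis. GENCODE 29 lists 7 transcripts of CASP2, 20 of CASP8, 11 of CASP9, 13 of APAF1 and 11 of XIAP, so a change in their proportions would not be seen in these values.

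Earlier work on these same libraries found that genes with GTGAGAA in the 3′ UTR had lower ratios, and the longest annotated 3′ UTR of each gene was therefore read. Of 10798 measured protein-coding genes, 14.7% held this sequence, with a median log2 ratio of -0.14 against -0.01 for the rest, and a median 3′ UTR of 3139 against 1209 bases. Of the 8 genes, CASP9 and CYCS held 1 copy each. The sites of both are shown. Neither gene had an interval below a ratio of 1, which was also so for most genes with this sequence. Each line gives 30 bases of the transcript strand from GENCODE 29, with GTGAGAA in capitals.
CASP9: aggcaacaaggGTGAGAAccctgtgctcag
CYCS: tttgtgggacaGTGAGAAgactgagaagat
On GRCh38 these windows are chr1:15492000-15492029 and chr7:25122367-25122396, both on the minus strand. The site starts at base 1766 of the CASP9 3′ UTR and base 1316 of that of CYCS. CYCS, with the site, had the highest ratio of the group. The CASP9 interval held both a ratio of 1 and the median of all carriers. Among all carriers 46.3% had an interval below a ratio of 1 and 12.3% above it, against 25.8% and 23.3% of the other genes. XIAP, with 6798 bases of 3′ UTR, held no copy. Measured genes of the related lists below that held 1 copy each are named here after their values were seen. Of these, BIRC2, BIRC3, BIRC6, CRADD, TNFRSF10D and PAK2 had an interval below a ratio of 1. BIRC5, BCL2L11 and UQCRB had an interval above it, and that of TRADD spanned it.

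Other genes of the pathway had ratios on both sides of 1. Of 80 related genes in 6 lists, 75 were measured. Of these, 28 had an interval above a ratio of 1, 19 below it and 28 spanned it. Their median log2 ratio was 0.03. Among all measured genes, 22.0% lay above 1 and 26.1% below it, and these shares stand beside each list below. More reads narrow an interval, and the lists were not matched for reads. Among caspases outside the 8, CASP4, an inflammatory caspase, had 0.11 (0.03 to 0.20), and CASP10, an initiator at death receptors, had 0.07 (-0.20 to 0.34), a value given after it was seen. CASP1, CASP5, CASP12 and CASP14 had no read in either library, which (at 3 counts) allows up to 0.229 CPM with siHNRNPM and 0.151 CPM in the control.

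In the list of death receptors and initiator platforms, 14 of 16 genes were measured, with 5 higher, 4 lower and 5 spanning (median 0.06). PIDD1, which encodes the p53-induced scaffold of the CASP2 platform, had 992 reads (75.8 CPM) against 558 (28.1 CPM), 2.70-fold higher, a log2 ratio of 1.43 (1.28 to 1.59). This exceeds any ratio among the 8 genes. PIDD1 overlaps the abundant ribosomal gene RPLP2 on the opposite strand, with 9175 and 12206 reads, and whether counting used strand is not given in the sources used here. The adaptor CRADD, which joins CASP2 to PIDD1, had -0.36 (-0.65 to -0.09), a value given after it was seen. The death receptor genes TNFRSF10A and FAS had 0.50 (0.35 to 0.64) and 0.41 (0.27 to 0.56). FAS overlaps ACTA2 on the opposite strand, which had 61 and 24 reads. Other receptor genes of the list went both ways, and their values are given after they were seen. TNFRSF10B had 0.14 (0.09 to 0.18), TNFRSF10D -0.37 (-0.43 to -0.32) and TNFRSF1A -0.25 (-0.39 to -0.11).

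Of 12 genes for other inhibitors of apoptosis, their antagonists and processing, 9 were measured, with 3 higher, 4 lower and 2 spanning (median -0.12). The ubiquitin ligase genes BIRC2 and BIRC6 had -0.45 (-0.54 to -0.36) and -0.27 (-0.33 to -0.21). PARL, whose protease matures DIABLO, had 0.29 (0.15 to 0.43). All 8 apoptosome regulators and cytochrome c maturation genes were measured, with 4 higher, 2 lower and 2 spanning (median 0.11). APIP, an APAF1-binding enzyme of methionine salvage, had 0.45 (0.26 to 0.64), PTMA, encoding prothymosin alpha, 0.26 (0.22 to 0.30) and UACA, an APAF1-binding protein gene, -0.33 (-0.52 to -0.14). PTMA also has processed pseudogenes that can share its reads. APIP overlaps PDHX on the opposite strand, which had 821 and 1455 reads. Some reads could thus belong to either gene if strand was not used in counting.

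Of 14 caspase substrates and death nucleases, all measured, 2 were higher, 4 lower and 8 spanning (median -0.04). XKR8, a lipid scramblase switched on by caspase cleavage, had -0.54 (-0.82 to -0.26), the kinase gene PAK2 -0.34 (-0.42 to -0.27) and DFFA, the inhibitor of the apoptotic DNase, 0.18 (0.03 to 0.32). DFFA overlaps PEX14 on the opposite strand, which had 263 and 413 reads. Of 11 BCL2 family genes, which act on cytochrome c release, 5 were higher, 3 lower and 3 spanning (median 0.02). Anti-apoptotic BCL2 had -1.03 (-1.35 to -0.72) and BCL2L1 0.53 (0.47 to 0.59), and the pro-apoptotic HRK had 1.30 (0.69 to 1.93) from 60 and 37 reads.

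Cytochrome c is also a respiratory protein, and its partners in complexes III and IV had smaller ratios than CYCS. All 19 were measured, with 9 higher, 2 lower and 8 spanning (median 0.08). The largest by absolute value were COX7A2 at 0.22 (0.11 to 0.33), CYC1, encoding cytochrome c1, at -0.22 (-0.33 to -0.11) and COX7C at 0.18 (0.12 to 0.25). The interval of CYCS, from 0.70, lay above those of these 3 genes.

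**Figure D4:**
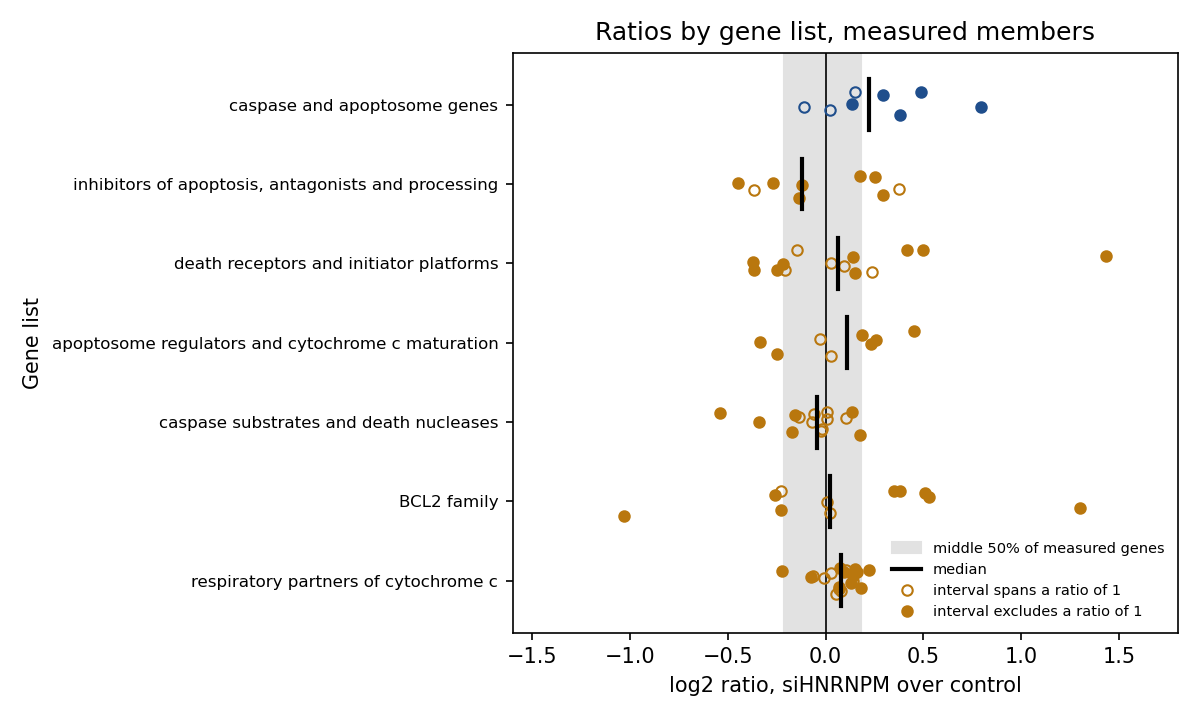
log2 ratio of siHNRNPM over control for the measured genes of each list; filled points have an interval that excludes a ratio of 1, open points do not, black bars are medians and grey marks the middle 50% of measured genes. The 8 genes have a median of 0.22, and the medians of the other lists run from -0.12 to 0.11.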

How the data were processed

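For the 2 libraries the authors deposited unnormalized counts, 1 whole number per gene symbol and library. HISAT2 2.0.4 and GRCh38 are listed without a role per the submitters' processing notes. The counter, annotation and strand setting were not stated. Groups came from the treatment labels and columns were tied to libraries by title. Counts were scaled with TMM (edgeR 4.0.16, R 4.3.3), with factors of 1.00 and 0.998, over the whole table. Ratios carry a 95% interval, taken from the exact binomial (Clopper-Pearson) interval for the share of a gene's reads in each library, and ratios between a pair of genes the conditional exact interval (scipy 1.17.1). A count of 0 was set to 0.5. The ratio procedure was run on simulated Poisson counts, which hold counting error only. That run therefore does not cover variation between cultures or PCR copies. Positions, lengths and 3′ UTRs came from GENCODE 29 (GRCh38). Exon length was the union over all transcripts of the symbol.

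The members and lists were chosen with earlier results of these data known. All 8 members and HNRNPM are named. From each related list up to 3 genes are named, ranked by absolute log2 ratio among those with an interval that did not include 1. Some genes the rule covers, in the list of other caspases, are not reported here, so no count is given over that list. Other named genes are marked or serve as overlaps, background or markers. Alternatives were total-count, upper-quartile and DESeq2 1.42.0 scaling, a thinned control library, no filter, a CPM minimum of 5, pseudogene reads added, a 2-fold rule and another length.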

Additional observations from a re-analysis of the deposited data

How the results depend on the processing

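Across the main setting and 6 alternatives (total-count, upper-quartile and DESeq2 scaling, the control library thinned, no filter and a CPM of 5 or more), the log2 ratio of CYCS ran from 0.78 to 0.82, CASP6 from 0.46 to 0.52, CASP8 from 0.27 to 0.41, XIAP from 0.29 to 0.33, CASP2 from 0.12 to 0.17, CASP9 from 0.14 to 0.21, APAF1 from 0.01 to 0.05 and DIABLO from -0.12 to -0.08. Each kept its sign, and CASP2 alone changed its side of the interval, with the control thinned. Under the rule of at least 2-fold, 0 of the 8 genes counted as higher, against 5 by the interval. Only 0.32% of measured genes with as many reads met that rule upward. The scaling settings moved the median of all genes by at most 0.03. Percentiles depended on the filter, and that of CYCS was 84.2 with no filter and 98.6 at a CPM of 5 or more. No paired analysis was possible because each group has 1 library. Variation between cultures cannot be estimated here, and the least read member, CASP9, has the widest interval of the 8.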
